A study of Mus musculus with 70 samples.

Results

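The basement membrane collagens and laminins followed here were 9 genes, out of 21154 gene symbols named on the array: the type IV collagen chains Col4a1 and Col4a2, the collagen Col18a1, the laminin alpha chains Lama4 and Lama5, the beta chains Lamb1 and Lamb3, the gamma chain Lamc1, and the linker Nid1. They were matched by gene name, from a list drawn up with earlier results of these data known. A non-control probe was taken where its transcript belonged to a member, which gave 12 of 55681 probes, and each gene was represented by the brightest of its probes. All 9 genes had a probe and all 9 passed the filter on dim probes in every comparison.

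Transcripts were measured on single-colour mouse arrays in RENCA cells, a renal carcinoma line of BALB/c mice. All cells, the starting ones included, carried a lentiviral GFP label. Before implantation the line is called P0, and P1 to P6 are the cells recovered after each of 6 successive rounds in female BALB/c mice, which the study's methods give as 6 weeks old. Kidney primary tumour (KPT) cells were placed under the kidney capsule and recovered from the kidney tumour, tail-to-lung metastasis (T-LM) cells were given into the tail vein and recovered from the lungs, and kidney-to-lung metastasis (K-LM) cells were placed under the kidney capsule and recovered from the lungs. Recovered tissue was digested with collagenase and grown in culture for about 2 weeks, until no GFP-negative cell was seen, per the study's methods. The hosts keep their own immune system and stroma, and each recovered sub-line is a mixed population rather than 1 clone as far as the sources say. The starting line was measured in 2 RNA samples. In passage order from P1, the KPT groups held 5, 2, 2, 3, 5 and 5 samples, those of T-LM 5, 2, 3, 4, 6 and 4, and those of K-LM 1, 1, 5, 3, 4 and 3. One of the T-LM P1 samples, replicate 1, carries a title that gives neither route nor number, and it was placed by its other labels.

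A basement membrane is a thin sheet of matrix on which epithelium, endothelium, muscle and fat cells rest. Laminin trimers of an alpha, a beta and a gamma chain polymerise at the cell surface, type IV collagen trimers form a second, covalently cross-linked network, and nidogen and perlecan tie the networks together. In the kidney such sheets surround the tubules and form the filter of the glomerulus, and fibroblasts, pericytes and endothelium make much of their matrix as well as epithelium.

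A level below is log2 of the processed signal of a probe minus the 75th percentile, on the same array, of the probes well above background on all 70 arrays. A level of 0 is therefore as bright as that percentile, a level near -8 or -9 is where probes not above background lie, and levels of different genes are not compared with each other. Between 25.1% and 55.1% of probes were well above background on an array. Arrays have no counting depth, so their number limits the precision. Nothing in the labels says that replicates came from separate animals, so p-values measure the spread between these samples, which may be partly technical. In RNA from a whole culture, fewer cells of a type and less RNA per cell cannot be told apart.

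The labelled cell type was checked first. Of 6 renal epithelial tumour markers, Krt8, Krt18 and Pax8, a renal transcription factor and a pair of simple-epithelium keratins, were well above background in all 65 RNA samples, while Pax2 was so in 0, Epcam in 5 and Cdh1 in 7. Of 6 endothelial markers, Kdr passed in all 65 samples and Tek and Tie1 in 0. The summed level of 6 fibroblast and mural cell markers (Pdgfra, Pdgfrb, Dcn, Lum, Thy1, Rgs5) was -5.86 and -5.76 in the P0 samples and higher in every other sample, up to 2.80 in T-LM P5 replicate 1. Levels were summed on the linear scale, so the brightest marker, often Dcn, carries most of the sum. In KPT P2, KPT P3 and T-LM P2 only 1 of the 6 was above background. KPT P2 replicate 1 had a sum of -0.79 with Dcn at -0.83, Thy1 at -9, Pdgfra at -8.90 and Col4a1 at -8.73. The sum is thus no measure of the share of such cells. Rgs5, which marks pericytes, was above background in 3 samples, and Dcn, a fibroblast proteoglycan, in 64. These values are given again beside the genes they move with.

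Col4a1 and Col4a2 lie head to head in the genome, and their start regions are printed because the pair moved together across the samples. The RefSeq start of Col4a1 is at chr8:11312826 on the minus strand (GRCm38.p6) and that of Col4a2 at chr8:11312805 on the plus strand, so the starts are 21 bases apart. Each window below runs from 250 bases before the start to 50 after it, 5′ to 3′ on the strand of its gene, from chr8:11312777-11313076 for Col4a1 and chr8:11312555-11312854 for Col4a2. Capitals mark the 78 bases that both windows hold, each read on its own strand.
Col4a1: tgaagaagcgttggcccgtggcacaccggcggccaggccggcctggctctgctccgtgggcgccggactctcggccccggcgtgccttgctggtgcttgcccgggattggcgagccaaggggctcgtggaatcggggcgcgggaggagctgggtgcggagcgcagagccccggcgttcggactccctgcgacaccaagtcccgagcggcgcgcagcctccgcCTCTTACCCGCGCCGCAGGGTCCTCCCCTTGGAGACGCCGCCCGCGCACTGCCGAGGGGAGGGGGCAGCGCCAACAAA
Col4a2: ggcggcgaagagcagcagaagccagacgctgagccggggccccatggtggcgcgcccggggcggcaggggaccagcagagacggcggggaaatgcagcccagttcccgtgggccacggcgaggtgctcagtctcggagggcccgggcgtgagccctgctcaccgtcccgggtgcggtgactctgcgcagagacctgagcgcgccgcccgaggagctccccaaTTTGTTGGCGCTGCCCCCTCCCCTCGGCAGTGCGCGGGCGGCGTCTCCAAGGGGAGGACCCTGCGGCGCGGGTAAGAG
The shared stretch holds the GC box GGGCGG and the CTC box CCCTCCCC once each, counting both strands, and the CCAAT box (CCAAT) in no place. The GC box stood in 35.7% of all 32851 RefSeq windows of this length, the CCAAT box in 37.4% and the CTC box in 10.8%. Of the 9 genes, 7 have such windows. The GC and CCAAT boxes were both found in a window of Col4a1, Col4a2, Lamb1, Nid1 and Col18a1, the GC box alone of this pair in that of Lama5, and neither in the windows of Lamb3. A match describes the letters and is not a site of binding.

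The 9 genes fell into 4 patterns. Col4a1, Col4a2, Lamb1, Nid1 and Lama4 were at or near background in most samples of P0, P2 and P3 and above background in at least part of the samples of each group at P1 and from P4 on, except that Lama4 was so in no KPT P6 sample. Lamb3 had its lowest group mean in P0 and was higher in every P3 sample of all routes. Lama5 and Lamc1 were above background in all 65 samples with small swings between passages, and Col18a1, also above background in all 65, had the smallest range of group means.

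The course over passages was not a steady rise. Mean Col4a1 was -8.65 ± 0.42 in P0 (SD, n = 2). In KPT it was -4.05 ± 2.5 at P1 (n = 5), -8.45 at P2, -8.10 at P3, -6.15 ± 2.0 at P4 (n = 3), -5.31 ± 2.4 at P5 (n = 5) and -6.06 ± 0.94 at P6 (n = 5). In T-LM it was -3.44 ± 3.0 at P1 (n = 5), -7.37 at P2, -8.43 ± 0.49 at P3 (n = 3), -3.34 ± 0.88 at P4 (n = 4), -5.30 ± 1.5 at P5 (n = 6) and -2.89 ± 0.98 at P6 (n = 4).
P2 and P3 thus lay near P0 in both routes. The SD was 2.0 to 3.0 in P1 of both routes and in KPT P4 and P5. It was 1.5 in T-LM P5 and 0.88 in T-LM P4, where all 4 samples were above background. The same dip held in K-LM, where Col4a1 was at -0.68 and -8.04 in the single samples of P1 and P2, at -7.58 ± 0.89 in P3 (n = 5) and at -3.76 ± 2.3 in P4 (n = 3). Mean Lamb1 at P2 was -8.50 for KPT, -6.08 for T-LM and -5.50 for K-LM, and mean Nid1 was -8.37, -6.87 and -7.08. Lama5 had its lowest group means in K-LM P5 (-1.39), KPT P3 (-1.34) and KPT P2 (-1.30), and Lamc1 in KPT P3 (-2.17), K-LM P3 (-1.83) and K-LM P5 (-1.82).

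**Figure D1:**
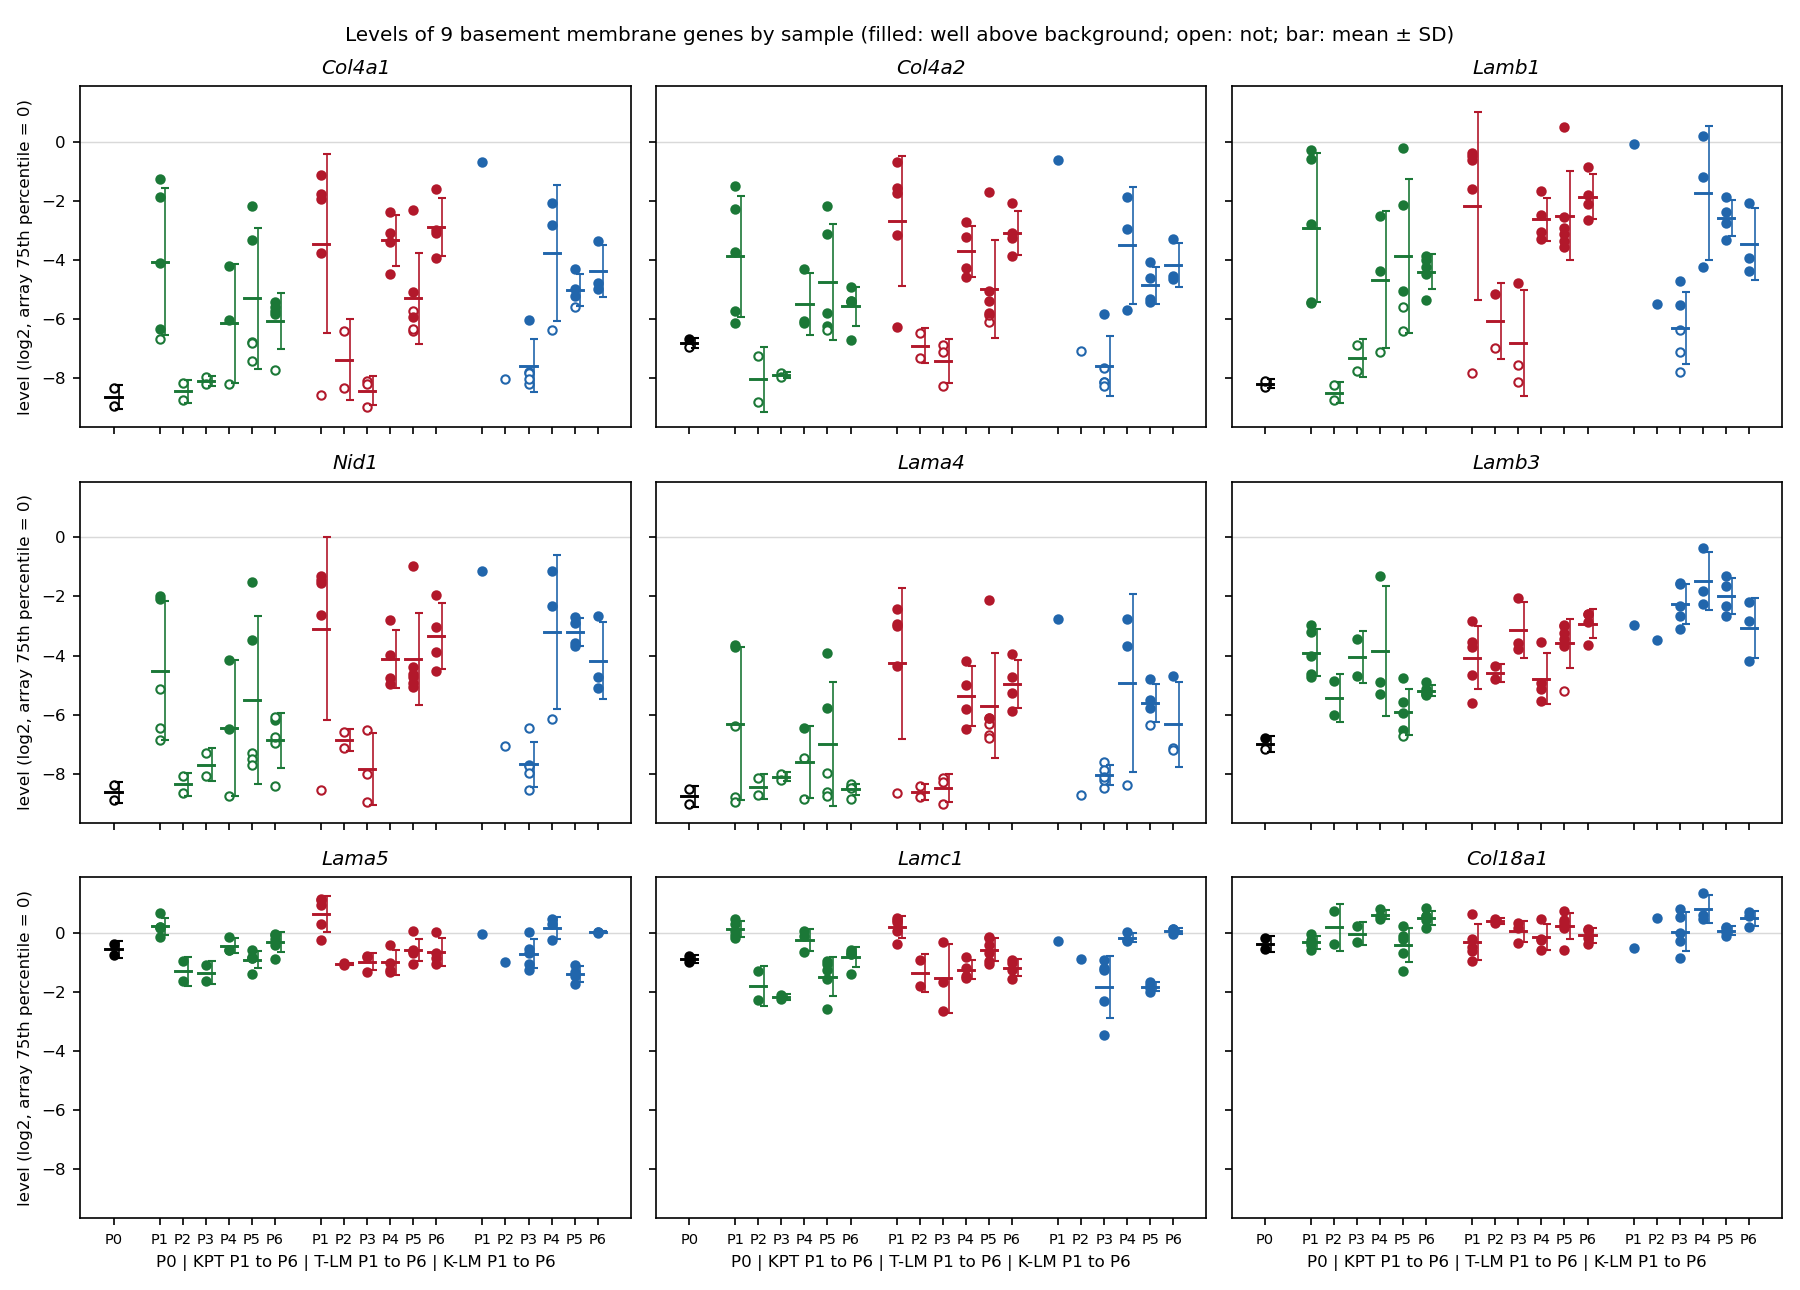
Level of each gene (log2, y axis) in each of 65 RNA samples by route and passage (x axis, from P0 through P1 to P6 of KPT in green, T-LM in red and K-LM in blue); filled points are well above background, open points are not, and bars are the mean ± SD. Col4a1 runs from -8.99 in a T-LM P3 sample to -0.68 in the K-LM P1 sample, while Lama5, Lamc1 and Col18a1 stay above background in every sample.

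The first comparison asked how each route's last passage differed from the starting line. In T-LM, 5 of the 9 genes rose from P0 to P6 and 0 fell, against 7.31% of all 21374 probes tested that passed in either direction. In K-LM, 4 rose and 0 fell, where 4.82% of probes passed. In KPT, 0 passed in limma, where 3.88% of probes did. There 3 members (Lamb1, Lamb3 and Col18a1) had an unadjusted p under 0.05, as did 3849 of all 20978 probes tested. The median fitted log2 change of the 9 genes was 3.80 in T-LM, 2.84 in K-LM and 1.10 in KPT, and that of all tested probes was 0.00, 0.00 and -0.01. The 3 comparisons share the P0 samples.

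Col4a1, a chain of the most widespread type IV collagen, was at -8.94 and -8.35 in P0, not above background in either sample. In T-LM P6 it was at -2.98, -1.58, -3.07 and -3.95, in K-LM P6 at -4.77, -5.00 and -3.37, and in KPT P6 at -7.73, -5.74, -5.83, -5.59 and -5.44. All P6 samples of all routes were above both P0 samples, and KPT replicate 1, the lowest of the P6 samples, was the only one of the 12 not above background. A fold is given as "at least" where a probe was not above background on any array of 1 group that the fit used, and it then compares the brighter group with the lowest level that counted as above background. From P0 to P6 Col4a1 was at least 8.35-fold higher in T-LM (adjusted p = 0.000589) and at least 4.87-fold higher in K-LM (adjusted p = 0.00306). The adjusted p in KPT was 0.464.

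Col4a2, its partner in the same trimer, was at -6.69 and -6.94 in P0. It was at -3.27, -2.08, -3.07 and -3.88 in T-LM P6, at -4.54, -4.66 and -3.30 in K-LM P6, and at -6.70, -5.40, -5.43, -5.40 and -4.92 in KPT P6. The T-LM and K-LM samples lay above P0, and KPT replicate 1 fell within the P0 range. The change passed in T-LM, at least 7.36-fold (adjusted p = 0.00651), and not in K-LM, where the log2 change was 2.68 ± 0.78 (SE, adjusted p = 0.0336). The T-LM call held in 8 of 18 alternative settings.

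Lamb1 makes the beta chain of the classical laminins of embryonic and many adult tissues. It was at -8.30 and -8.09 in P0, not above background. At P6 it was at -1.81, -0.84, -2.11 and -2.66 in T-LM, at -3.95, -4.36 and -2.07 in K-LM, and at -5.37, -4.25, -4.49, -4.01 and -3.85 in KPT. No P6 sample overlapped P0, and the KPT and K-LM samples overlapped each other. Lamb1 was at least 17.1-fold higher in T-LM (adjusted p = 0.000228) and at least 9.23-fold higher in K-LM (adjusted p = 0.0013), and the KPT difference had an adjusted p of 0.147. With only the P0 and P6 samples in the fit, Lamb1 also passed in KPT (adjusted p = 9.69e-05). It did so too within the slide labelled batch2 (adjusted p = 0.00366), so named from the titles of its 5 repeat arrays. Of 21 alternative settings of this KPT comparison, Lamb1 passed in these 2 only. With the summed fibroblast and mural level as a covariate, its fitted log2 change turned to -3.32 (adjusted p = 0.0932).

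Nid1, nidogen 1, which links laminin to type IV collagen, was at -8.89 and -8.38 in P0. It was at -3.03, -1.95, -3.87 and -4.54 in T-LM P6, at -4.74, -5.10 and -2.67 in K-LM P6, and at -8.42, -6.95, -6.76, -6.19 and -6.08 in KPT P6. KPT replicate 1 overlapped P0, and replicate 4 was the only KPT P6 sample above background. Nid1 was at least 6.10-fold higher in T-LM P6 than in P0 (adjusted p = 0.00223) and at least 5.66-fold higher in K-LM P6 (adjusted p = 0.00327). These values come from 1 of its 3 probes. The other 2 were above background on 0 of 70 arrays.

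Lama4, an alpha chain of vessels, muscle and fat, was not above background in P0, at -9.02 and -8.53, nor in any KPT P6 sample, at -8.85, -8.47, -8.45, -8.36 and -8.50. T-LM P6 lay at -4.73, -3.96, -5.27 and -5.89, all above background, and K-LM P6 at -7.13, -7.19 and -4.69, of which only replicate 3 was. From P0 to P6 Lama4 missed the threshold in T-LM (adjusted p = 0.0315) and in K-LM (adjusted p = 0.0792).

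Lamb3, the beta chain of the epithelial laminin of skin and other lining epithelia, was at -6.81 and -7.18 in P0. It reached -2.85, -2.59, -2.61 and -3.63 in T-LM P6 and -2.84, -4.17 and -2.20 in K-LM P6, and stood at -5.30, -4.91, -5.13, -5.34 and -5.27 in KPT P6. The 3 routes were all above P0, and the KPT samples were all below those of both lung routes. Both P0 samples were below background on the arrays used for T-LM, and 1 passed on its repeat array. Lamb3 was at least 8.20-fold higher in T-LM P6 (adjusted p = 0.000114) and 3.97 ± 0.53 higher on the log2 scale in K-LM P6 (SE, adjusted p = 1.78e-05). In KPT the log2 difference was 1.76 ± 0.78 (adjusted p = 0.236).

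The members detected in all samples moved less. Col18a1, a collagen with heparan sulfate chains whose end fragment is endostatin, had log2 changes from P0 to P6 of 0.79 ± 0.34 for KPT, 0.11 ± 0.32 for T-LM and 1.02 ± 0.33 for K-LM (SE), with adjusted p of 0.227, 0.905 and 0.0622. Lama5, the broadest laminin alpha chain of adult epithelia and vessels, had changes between -0.07 and 0.53, with 95% intervals that together run from -0.74 to 1.17. Lamc1, the gamma chain of most laminins, had changes between -0.07 and 0.77, with intervals from -1.01 to 1.72. None of these passed.

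Markers of fibroblasts and mural cells differed between the same samples. Of the 6, 1 was above background in some P0 sample, 5 in T-LM P6, 4 in K-LM P6 and 4 in KPT P6, and Rgs5 was above background in no P6 sample. Their summed level was -0.22 to 0.95 in T-LM P6, -1.39 to 0.03 in K-LM P6 and -1.60 to -1.28 in KPT P6, against -5.86 to -5.76 in P0. Mean Dcn was -7.58 in P0, -2.02 in KPT P6, 0.02 in T-LM P6 and -1.39 in K-LM P6, and Dcn and Pdgfrb both rose in all routes. With this summed level as a covariate, an alternative added after seeing the data, 1 member passed from P0 to P6 in T-LM (Lamb3) and 0 in K-LM, and the fitted T-LM changes turned to -1.59 for Col4a1, -2.51 for Col4a2, -0.60 for Lamb1 and -2.09 for Nid1, none of which passed. P0 lies below all other samples in this covariate. In the same fit of KPT, 3 members passed: Col18a1 at 2.10, Lama4 at -5.22 and Nid1 at -6.23. Of 4 alveolar and airway markers, 2 rose from P0 to P6 in T-LM, and the 1 tested rose in KPT and in K-LM. In T-LM, 3 of the 4 rose from P3 to P6 and 4 from P1 to P6, and 0 fell. The part of any of these cell types in the result was not tested.

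The P0 values also set the size of these differences. On repeat arrays of the P0 samples the dim levels of Col4a1 differed from the first arrays by -1.40 and -1.14, and those of Nid1 by -1.39 and -1.10. With every value below -5 raised to -5, the highest over arrays of the lowest level that was above background, 0 members passed from P0 to P6 in any route. Under this floor Col4a1 was 2.11 higher in T-LM (adjusted p = 0.109), Lamb1 3.14 (adjusted p = 0.0323) and Lamb3 2.08 (adjusted p = 0.0418). Without P0 replicate 1, 1 member passed in T-LM and 1 in K-LM. Without P0 replicate 2, 1 passed in K-LM and 3 in T-LM. Without K-LM P6 replicate 3, 1 passed in K-LM. Counts of members without any other sample were 4 or 5 in T-LM and 4 in K-LM. Of all probes, 3.21% to 6.32% passed in these T-LM fits and 2.07% to 3.71% in those of K-LM.

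**Figure D2:**
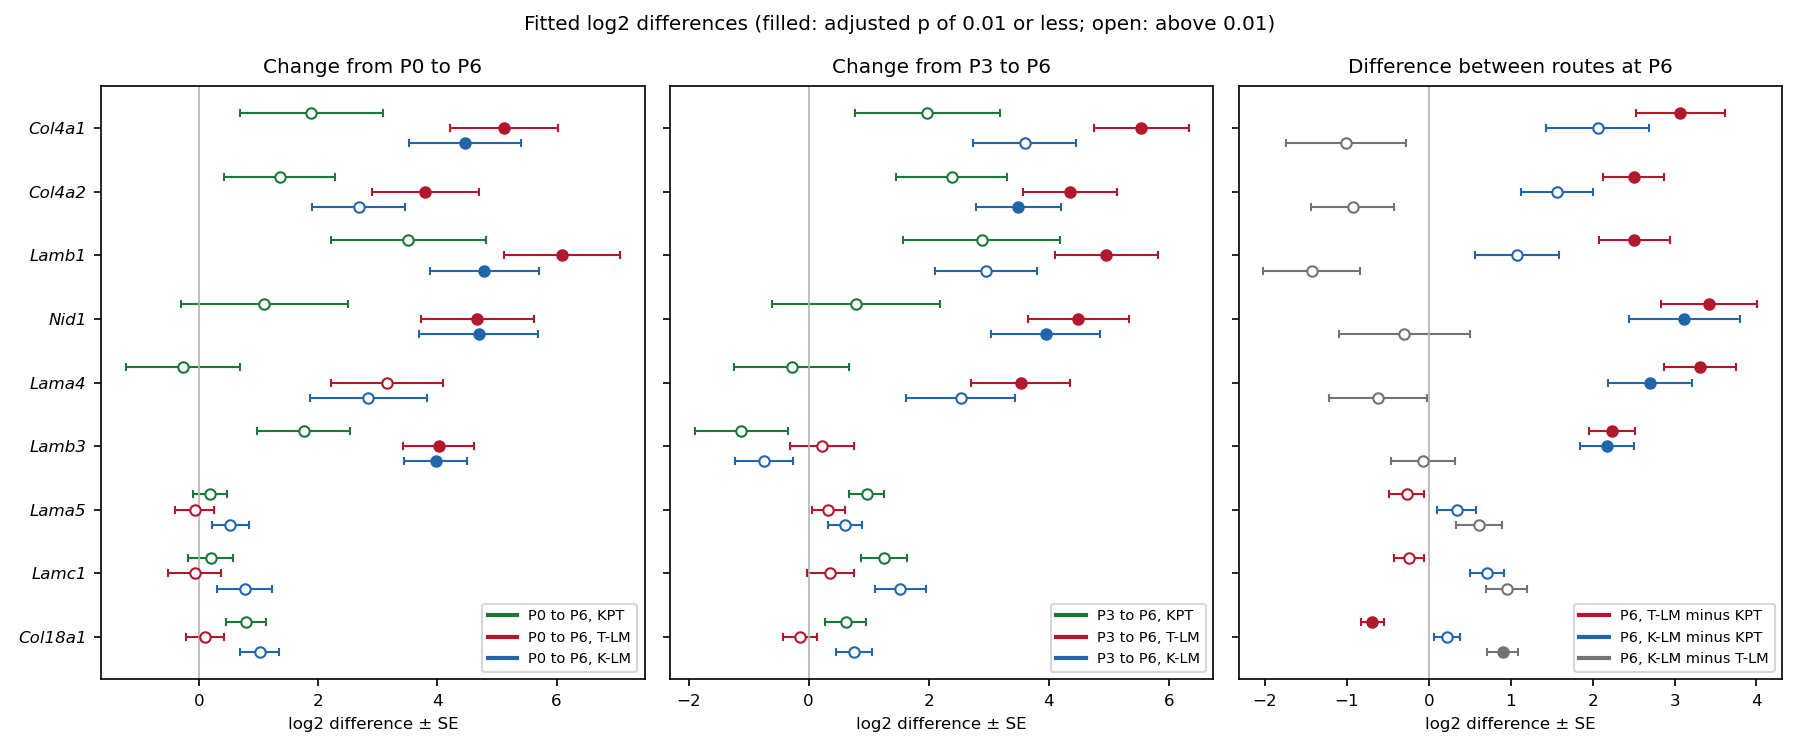
Fitted log2 differences ± SE (x axis) of the 9 genes (y axis) from P0 to P6, from P3 to P6 and between routes at P6; filled points have an adjusted p of 0.01 or less. The 5 filled T-LM points of the first panel lie between 3.80 and 6.09, while the KPT points of both passage panels are all open; where a gene is not above background in P0 or P3, the point rests on dim values and is no bound.

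The second comparison was the study's own contrast, P3 against P6 in each route. In T-LM 5 of the 9 genes rose and 0 fell (7% of all probes tested passed), in K-LM 2 rose and 0 fell (3.54%). In KPT 0 passed in limma (0.715%), with 4 at an unadjusted p under 0.05, as were 4732 of all 20978 probes tested. The medians of the 9 genes were 3.53, 2.53 and 0.97 in T-LM, K-LM and KPT, and those of all tested probes 0.07, 0.08 and 0.06. No difference between routes in the change from P3 to P6 passed for any member, with adjusted p of 0.326 or more.

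In T-LM the network and linker chains rose together. Col4a1 was at -8.09, -8.99 and -8.22 in P3, none above background, so that P6 was at least 12.6-fold higher (adjusted p = 0.000104). Col4a2, at -8.26, -6.89 and -7.12 in P3, was at least 10.9-fold higher (adjusted p = 0.000868). Nid1, at -8.03, -8.96 and -6.53, was at least 9.21-fold higher (adjusted p = 0.00123). P3 and P6 did not overlap for any of these called genes, which adds no separate support.
Lamb1, at -8.14, -7.55 and -4.77 in P3, rose by 4.96 ± 0.86 on the log2 scale (SE, adjusted p = 0.000628), and replicate 5 was its only P3 sample above background. Lama4, at -8.14, -9.04 and -8.30, was at least 3.01-fold higher in P6 (adjusted p = 0.00717), and it kept this call in 6 of 19 alternatives. The summed fibroblast and mural level was -3.32 to -2.41 in T-LM P3. With it as a covariate, or with the floor at -5, 0 members passed.

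In K-LM, Col4a2 was at -8.12, -7.65, -5.84, -8.12 and -8.27 in P3 and rose by 3.49 ± 0.71 on the log2 scale (SE, adjusted p = 0.00402). Nid1, at -7.70, -8.56, -6.46, -7.76 and -7.97, was at least 4.35-fold higher at P6 (adjusted p = 0.00895). K-LM P3 replicate 3 was the highest of its group for both. Col4a1 narrowly missed the threshold (adjusted p = 0.0108). Without K-LM P3 replicate 3, 5 members passed, without replicate 1 there was 1, without replicate 4 or 5 there were 0, and without any one of the 3 P6 samples there were 0. Over the fits without 1 sample, the share of all probes passing ran from 0.978% to 8.39%. In KPT P3, Col4a1 (-7.98 and -8.21), Lamb1 (-6.87 and -7.77) and Col4a2 (-7.83 and -7.97) were below every P6 sample, but none passed, with adjusted p of 0.366, 0.207 and 0.136. The share of all probes without overlap between KPT P3 and P6 was not counted, so this separation adds no support.

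Lamb3 did not follow the others from P3 on. It was already at -3.43 and -4.68 in KPT P3, at -3.79, -2.04 and -3.58 in T-LM P3, and at -1.59, -1.54, -2.65, -3.10 and -2.33 in K-LM P3, above both P0 samples throughout. From P3 to P6 its log2 difference was -1.12 ± 0.78 for KPT, 0.22 ± 0.53 for T-LM and -0.74 ± 0.48 for K-LM (SE), with adjusted p of 0.429, 0.837 and 0.303. Its highest group mean was K-LM P4, at -1.47 ± 0.98 (SD, n = 3), followed by K-LM P5 at -1.98 ± 0.61 (n = 4) and K-LM P3 at -2.24 ± 0.68 (n = 5), which lie within their spread of each other. The lowest after P0 was KPT P5, at -5.91 ± 0.79 (n = 5).

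Lamc1 and Lama5 had lower means at P3 than at P6 in each route, but none of these differences passed. Lamc1 was at -2.24 and -2.09 in KPT P3 and at -1.39 to -0.59 in KPT P6, without overlap, and its log2 difference of 1.26 ± 0.38 (SE) had an adjusted p of 0.0571. Lama5 was at -1.07 and -1.61 in KPT P3 and at -0.87 to -0.05 in KPT P6, a difference of 0.97 ± 0.29 (adjusted p = 0.0567). In K-LM, Lamc1 differed by 1.53 ± 0.42 (adjusted p = 0.0196).
The median log2 change of 15 tested long mRNAs outside the matrix from P3 to P6 was 1.32 for KPT, 0.74 for T-LM and 1.13 for K-LM, and 1, 0 and 2 of the 15 passed, all higher at P6. The long mRNA index, the mean level of 16 long mRNAs minus that of 74 ribosomal protein mRNAs, correlated over the 19 group means at r = 0.91 with Lamc1 and 0.89 with Lama5, between 0.40 and 0.64 with Col4a2, Col4a1, Lamb1, Nid1 and Lama4, -0.07 with Col18a1 and -0.11 with Lamb3. The summed fibroblast and mural level correlated over the same means at r = 0.77 to 0.88 with Col4a2, Col4a1, Lama4, Lamb1 and Nid1. With Lamb3 it was at 0.54, with Lama5 at 0.3, with Lamc1 at 0.29 and with Col18a1 at -0.01. These are descriptions over means that share arrays and scaling. The part of what the index measures in the result was not tested, nor that of cells with such markers.

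**Figure D3:**
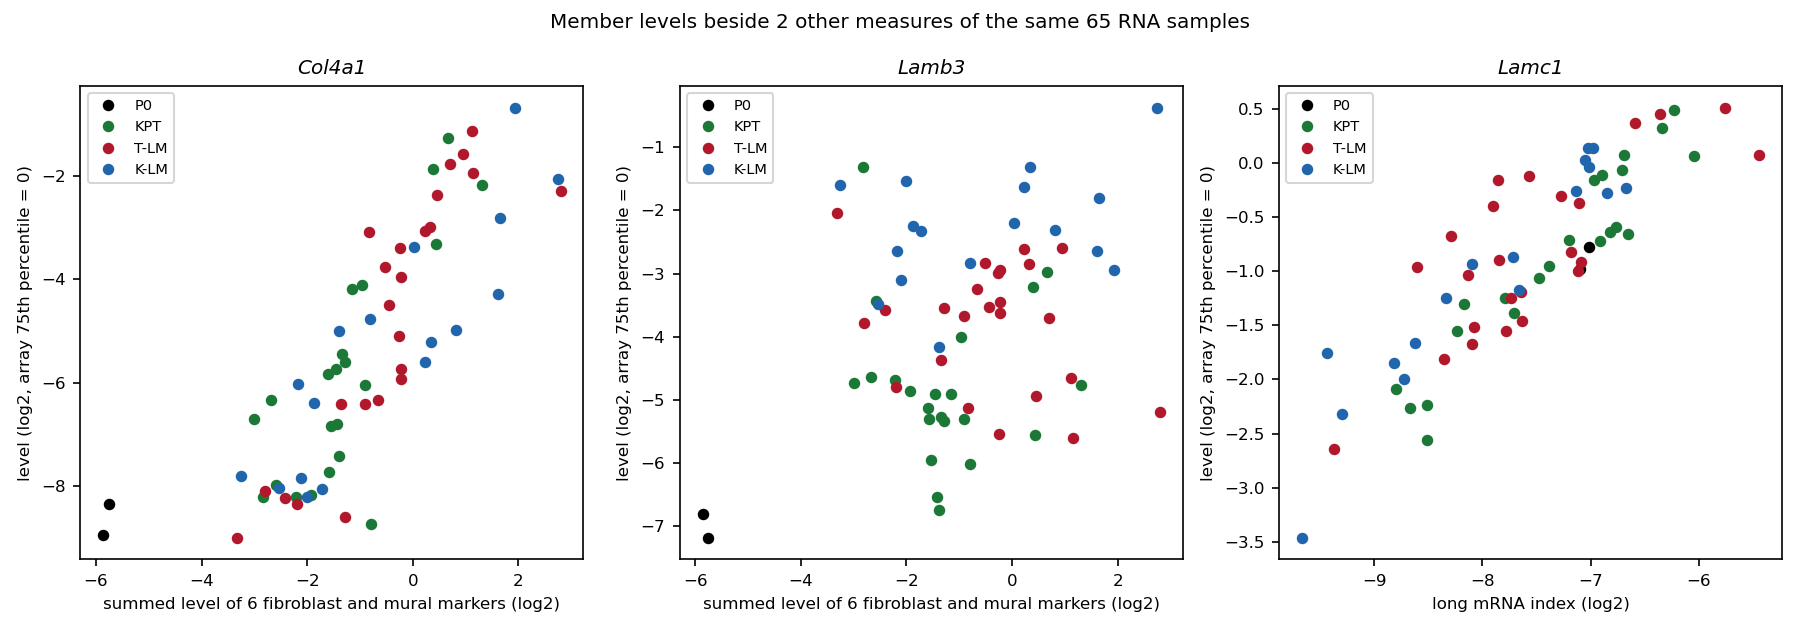
Levels (log2, y axes) of Col4a1 and Lamb3 against the summed level of 6 fibroblast and mural markers, and of Lamc1 against the long mRNA index (log2, x axes), in 65 RNA samples coloured by route. Over the 19 group means the correlations were 0.84, 0.54 and 0.91, and both P0 samples lie at the far left of the first 2 panels.

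P1 was compared with P0 next, and few changes passed. From P0 to P1, 1 of the 9 genes rose in T-LM (2.56% of probes passed) and 0 passed in KPT in limma (4.41%). In KPT 7 members had an unadjusted p under 0.05, as did 6012 of all 22031 probes tested. The gene called was Lamb3, at -3.54, -2.83, -5.61, -4.66 and -3.71 in T-LM P1, at least 3.69-fold higher than in P0 (adjusted p = 0.00956). It kept this call in 6 of 20 alternatives.

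Lamb1 shows the spread at P1. In KPT P1 it was at -5.44, -5.46, -2.77, -0.28 and -0.57, and in T-LM P1 at -7.82, -1.61, -0.60, -0.48 and -0.38. The T-LM sample at -7.82 is replicate 1, whose title is unclear, and it stood near P0 for Col4a1 (-8.59), Nid1 (-8.57) and Lama4 (-8.65) as well. Without it 6 members rose from P0 to P1 in T-LM: Lamb1 (adjusted p = 1.75e-05), Nid1 (6.39e-05), Col4a1 (0.000147), Col4a2 (0.000444), Lama4 (0.000769) and Lamb3 (0.00842). Without replicate 3, 2 members passed, and without replicate 2, 4 or 5, 0 did, as without either P0 sample. The share of all probes passing moved too, from 0.261% to 8.18% over the fits without 1 sample, against 2.56% with all.
The summed fibroblast and mural level was -1.28 in T-LM P1 replicate 1 and -0.52 to 1.15 in the other 4. In replicate 1 the sum rested on Dcn (-1.32), with Thy1 at -8.97, Pdgfra at -8.66 and Pdgfrb at -8.41. In KPT P1 it was -3 and -2.68 in the replicates with Col4a1 at -6.69 and -6.33, and 0.39 and 0.67 in those with Col4a1 at -1.86 and -1.27. All 6 markers, Rgs5 included, were above background in some sample of KPT P1 and of T-LM P1. The part of these cells in the P1 values was not tested. The single K-LM P1 sample stood above every other group mean for Col4a1 (-0.68), Col4a2 (-0.62), Lamb1 (-0.06), Nid1 (-1.15) and Lama4 (-2.75), and its summed marker level was 1.93, with 5 of the 6 markers above background.

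From P1 to P6 the direction of the network genes was not settled. In KPT 1 of the 9 genes rose and 1 fell (11.6% of probes passed), and in T-LM 0 rose and 2 fell (9.28%). Col18a1 rose in KPT from between -0.59 and -0.03 to between 0.18 and 0.84, by 0.92 ± 0.24 on the log2 scale (SE, adjusted p = 0.00976), without overlap. Its second probe, also above background on all arrays, differed by 0.68 ± 0.19 (adjusted p = 0.0132). Lamc1 fell by 1.04 ± 0.27 in KPT (adjusted p = 0.00839) and by 1.38 ± 0.33 in T-LM (adjusted p = 0.00549), and Lama5 fell by 1.30 ± 0.28 in T-LM (adjusted p = 0.00268). Both KPT calls were lost when any one of the 10 samples was left out. In T-LM, 0 members passed without T-LM P6 replicate 1 or 2, and 1 passed without T-LM P6 replicate 4 or T-LM P1 replicate 2, 4 or 5. With 1 sample left out, 7.6% to 10.2% of all probes passed in KPT and 5.53% to 9.57% in T-LM.
With the long mRNA index as a covariate, the changes of Lamc1 were -0.45 (adjusted p = 0.146) in KPT and -0.48 (adjusted p = 0.253) in T-LM, and that of Lama5 was -0.83 (adjusted p = 0.0961). Col18a1 passed in KPT with this covariate, at 1.27. The difference between T-LM and KPT in the change from P1 to P6 passed for no member, the lowest adjusted p being 0.0751, for Lamb3 (2.40 ± 0.76).

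The routes were then compared at P6. T-LM exceeded KPT in 6 of the 9 genes and was lower in 1, where 11.5% of probes passed, and the median log2 difference of the 9 genes was 2.50 against -0.01 for all probes. K-LM exceeded KPT in 3 and was lower in 0 (16% passed), and K-LM differed from T-LM in 1 (11.9% passed), with medians of 1.56 and -0.30. All K-LM P6 arrays lie on the slide labelled batch2, which was scanned on another day with other software, and repeat arrays of 3 KPT P6 and both P0 samples on it carry the comparison.

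T-LM and KPT P6 samples did not overlap for any of the 7 genes. They were named by their calls in this comparison, so this adds no separate support. The share of all probes without overlap was not counted. Lama4, not above background in KPT, was at least 3.80-fold higher in T-LM (adjusted p = 2.45e-05). The log2 differences of the other genes were 3.42 ± 0.59 for Nid1, 3.07 ± 0.54 for Col4a1, 2.51 ± 0.43 for Lamb1, 2.50 ± 0.37 for Col4a2 and 2.24 ± 0.28 for Lamb3 (SE), with adjusted p between 1.60e-05 and 0.000421. Col18a1 was lower in T-LM, at -0.38, -0.18, 0.10 and 0.13 against 0.18, 0.56, 0.59, 0.43 and 0.84, a log2 difference of -0.69 ± 0.14 (adjusted p = 0.00164), and its second probe differed by -0.50 ± 0.13 (adjusted p = 0.00932). In each fit without a single sample of either group 7 members passed, and with the floor at -5, 5 did.
The summed fibroblast and mural level did not overlap either, at -0.22 to 0.95 in T-LM and -1.60 to -1.28 in KPT. Lum, Pdgfra and Dcn, 3 of the 5 markers tested from that list, were higher in T-LM. Pdgfrb and Thy1 did not pass, with means of -3.53 and -3.95 in T-LM P6 and -3.56 and -5.57 in KPT P6. Rgs5 was above background in neither group. Higher in T-LM too were 3 of 4 alveolar and airway markers. Mean Sftpc, the surfactant protein C gene of alveolar cells, was -2.76 in T-LM P6 and -8.77 in KPT P6, where it was near background. Of 5 macrophage markers (Ptprc, Cd68, Adgre1, Csf1r, Lyz2), 2 were higher in T-LM, Lyz2 by 2.91 ± 0.35 on the log2 scale (SE) and Adgre1 with a mean of -6.28 against -8.79, near background, and 1 was lower, Cd68, with a log2 difference of -0.77 ± 0.15. Their summed level was 1.36 to 1.46 in T-LM P6, 1.73 to 2.24 in KPT P6 and 1.16 to 1.43 in P0, and from P0 to P6 in T-LM 1 of them rose, Ptprc, from a mean near background of -8.86 to -6.87. With the summed fibroblast and mural level as a covariate, 0 members passed, and the differences were 0.58 for Col4a1 and 1.15 for Lamb3. With all 70 arrays in 1 fit, 1 member passed, Lamb3. The part of other cell types was not tested.

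K-LM P6 exceeded KPT P6 in Lama4, at least 1.47-fold (adjusted p = 0.000784), in Nid1 by 3.12 ± 0.68 on the log2 scale (SE, adjusted p = 0.00248) and in Lamb3 by 2.17 ± 0.33 (adjusted p = 0.000122). Lama4 was above background in 1 of the 3 K-LM samples. Within the slide labelled batch2, Lamb3 differed by 2.15 (adjusted p = 0.00649) and Nid1 by 2.97 (adjusted p = 0.0166). Lamb3 passed in 21 of 22 alternative settings, the marker covariate among them (1.58, adjusted p = 0.00271), Nid1 in 17 of 22 and Lama4 in 16 of 20.
Between the lung routes, Col18a1 was higher in K-LM by 0.90 ± 0.19 (adjusted p = 0.00254), with its second probe at 0.31 ± 0.17 (adjusted p = 0.224), and Lamc1 narrowly missed the threshold, 0.95 ± 0.25 (adjusted p = 0.0104). Without K-LM P6 replicate 1 or 2, 0 members passed in this comparison, and without K-LM P6 replicate 3 or T-LM P6 replicate 3, 2 did. The 95% interval of the K-LM minus T-LM difference was -2.56 to 0.54 for Col4a1 and -0.89 to 0.75 for Lamb3.

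Over the 19 group means of P0 and all passages, the gene most like Col4a1 among 10535 genes was Col4a2 (r = 0.98). The next members, Nid1 and Lamb1, ranked 11 and 12 at 0.95 each. Outside the members, the closest to Col4a1 were Pxdn (0.97), the peroxidase that cross-links type IV collagen, Fbn1 (0.97), the microfibril protein fibrillin 1, and Adamts2 (0.96), which cleaves procollagen. For Col4a2 they were Pxdn, Fbn1 and Egfr (0.97 each), for Lamb1 Plxdc2, Dpysl3 and Fkbp10 (0.98 each), and for Nid1 Rtl8b, Adamts2 and Ccnd2 (0.99 each). The nearest member ranked 19 for Lamb1 (Nid1, 0.97) and 21 for Nid1 (Lamb1, 0.97).
Lamc1 was closest to Baz2a, Sec16a (0.97 each) and R3hdm1 (0.96), and Lama5 to Lrp1, Hyal1 and Vps13c (0.92 each), with 0.91 between Lamc1 and Lama5. Lamb3 was closest to Sbsn (0.83), Rala (0.80) and Pmaip1 (0.79), and at 0.50 with Nid1 as the nearest member. Col18a1 was closest to Cdsn (0.84), Slc1a7 (0.77) and Smarcd2 (0.74), and at -0.30 with Col4a2. Lama4 was above background on too few arrays to be ranked. All these r describe 19 means that share arrays and scaling.

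Other genes of the pathway were counted in the same fits. Of 25 other basement membrane genes, 18 could be tested from P0 to P6 in T-LM, and 2 rose and 1 fell. Those that passed included Smoc2, which rose, and the fibulin Fbln1, which fell by 1.43 ± 0.28 on the log2 scale (SE). Of 19 tested in K-LM, 1 rose, the perlecan gene Hspg2 (fitted log2 change 2.38 ± 0.56), and of 20 in KPT 0 passed. Between T-LM and KPT at P6, 6 of 19 were higher and 2 lower. The 4 with the largest differences were all higher in T-LM. Egfl7, a gene of vessels, differed by 1.34 ± 0.21 (SE), and the other 3 were near background in KPT P6. Mean Col4a5, a chain of the specialised type IV collagens, was -5.98 in T-LM P6 and -8.64 in KPT P6, mean Lama2, the laminin alpha chain of muscle, was -6.05 and -8.33, and mean Smoc2 was -5.16 and -7.56.

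Among 14 receptors for the membrane, 3 of 13 tested rose from P0 to P6 in T-LM: the laminin receptor subunits Itga6 and Itgb4 and the Lutheran laminin receptor Bcam. Itgb4 differed by 1.84 ± 0.35 in T-LM, and it rose in KPT (1.85 ± 0.33) and K-LM (2.00 ± 0.41) too. Of 12 receptors tested in K-LM, 3 rose, the other two being the syndecan Sdc4 (1.63 ± 0.38) and the integrin chain Itga7 (1.19 ± 0.27), and of 12 in KPT, 1 did. Itga6 and Bcam were not above background in P0, with mean levels of -8.77 and -8.86 there and -4.73 and -6.04 in T-LM P6. No receptor fell in these comparisons. Of 11 genes for the folding, modification and export of type IV collagen, 1 rose in T-LM, Pxdn, from a mean of -8.07 in P0 to -3.95, 1 rose in K-LM, the lysyl hydroxylase Plod1 (1.11 ± 0.25), and 0 passed in KPT. Among 8 interstitial collagens, which belong to the stroma rather than the membrane, 5 of 8 tested rose in T-LM, 4 of 7 in K-LM and 2 of 7 in KPT. Col6a3 rose in all routes, from a mean of -8.36 in P0, not above background, to -1.89 in T-LM P6, -0.53 in K-LM P6 and -1.30 in KPT P6.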

How the data were processed

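Labelled RNA of 65 samples was hybridised to 70 single-colour (Cy5) Agilent arrays, 5 samples having a repeat array on the slide labelled batch2. The intensity values were deposited by the authors as scanner output, of which the processed signal (background-subtracted by the scanner software) was used. The authors' series values are on a log2 scale and matched quantile-normalized log2 median signals to within 0.157; they served as an alternative. Each array's log2 processed signal was centred on the 75th percentile of 11289 probes well above background on all arrays. Control spots and outlier-flagged spots (0.366%) were left out, and spots of a probe were averaged. Symbols came from the RefSeq table of GRCm38.p6 (28026 of 55681 probes matched, 27655 did not), and the brightest probe stood for a gene. No probe of the 9 genes was saturated.

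Passages of each route were fitted in limma 3.58.1 (R 4.3.3, lmFit and eBayes) with P0, on first arrays. K-LM P6 lies only on the slide labelled batch2, which was scanned later with another version of the scanner software. K-LM and P6 fits therefore used repeat arrays, an array set term and, as a random block, the RNA sample (duplicateCorrelation, statmod 1.5.0). P1 entered only comparisons that use it. Probes above background on 2 or more arrays of a fit were tested, two-sided, with Benjamini-Hochberg adjustment over all of them. A call is an adjusted p of 0.01 or less. The fits were tested on simulated data.

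The members and lists were chosen with earlier results of these data known. The text names all 9 genes, at most the 4 called genes of another list with the largest change in a comparison, and the 3 genes most like a member over group means. Alternatives covered scaling, background correction, filters, a floor, covariates, blocks, repeat arrays, the samples fitted and each sample left out in turn. Normexp used the median signal and median background with an offset of 50. The covariate of summed fibroblast and mural markers was added after the data were seen. One result among the other basement membrane genes is not reported here.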

Additional observations from a re-analysis of the deposited data

Results flagged for a closer look

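Each gene in each group of 4 to 6 samples was tested for a sample far from the rest of its group. Of these 81 tests, 14 flagged one, where chance alone gives about 1 in 20. These tests are not independent, since the genes share samples. T-LM P5 replicate 1 stood above the other 5 samples for Col4a1 (-2.30), Col4a2 (-1.69), Lama4 (-2.11), Lamb1 (0.49) and Nid1 (-0.97) and below them for Lamb3 (-5.19). Its summed fibroblast and mural marker level was 2.80, against -0.90 to -0.22 in the other 5, and the part of such cells in its values was not tested. T-LM P1 replicate 1, the sample of unclear title, stood below its group for Lamb1 (-7.82) and Nid1 (-8.57). KPT P6 replicate 1 stood below its group for Col4a1 (-7.73), Col4a2 (-6.70), Lama4 (-8.85, not above background) and Lamc1 (-1.39). Its long mRNA index was -7.71, against -7.20 to -6.65 in the other 4. K-LM P3 replicate 3 stood above its group for Col4a1 (-6.02) and Col4a2 (-5.84), with an index of -7.66 against -9.67 to -8.10. The part of what the index measures in these values was not tested.

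The routes differed at P6, and hence in their change from the shared P0, by limma in 11 values. T-LM minus KPT was 3.07 for Col4a1, 2.50 for Col4a2, 2.24 for Lamb3, 2.51 for Lamb1, 3.42 for Nid1 and -0.69 for Col18a1 on the log2 scale, and the fitted value for Lama4, 3.31, rests on dim KPT values. K-LM minus KPT was 2.17 for Lamb3 and 3.12 for Nid1, and 2.70 for Lama4, again against dim values. K-LM minus T-LM was 0.90 for Col18a1.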

How the results depend on the processing

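Dim P0 and P3 values, the slide labelled batch2, the small number of P0 samples and the fibroblast and mural markers that differ between the groups limit these results. Of 1550 single-gene values under alternatives other than leaving out a sample, 1368 kept their call and direction or stayed uncalled. Another 103 lost a call, 72 gained one and 7 called values reversed. Of 873 with a sample left out, the same counts were 789, 72, 12 and 0. The reversals cover called values only. Values uncalled in the main fit changed sign 65 times in the first set and 25 times in the second. All 7 reversals came with the fibroblast and mural covariate, chosen after seeing the data: Col4a1 from P0 to P6 at -0.37 (K-LM) and -1.59 (T-LM), Nid1 at -0.59 and -2.09, Col4a2 at -2.51 and Lamb1 at -0.60 (both T-LM), and Lama4 from P3 to P6 in T-LM at -0.36. The cause was not tested.

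Counts of members called that moved by over 1.5 times, or to or from 0, were as follows. With the fibroblast covariate, P0 to P6 gave 3 for KPT, 1 for T-LM and 0 for K-LM, P3 to P6 gave 0 in T-LM and 0 in K-LM, P0 to P1 gave 1 in KPT and 2 in T-LM, and T-LM minus KPT and K-LM minus T-LM gave 0. With the floor, P0 to P6 and P3 to P6 gave 0 in T-LM and K-LM, P0 to P1 in T-LM and P1 to P6 in KPT 0, P1 to P6 in T-LM 1 and K-LM minus KPT 1. With all 70 arrays in 1 fit, P0 to P6 gave 3 in T-LM and 1 in K-LM, P3 to P6 3 and 1, P0 to P1 2 in KPT and 6 in T-LM, P1 to P6 in KPT 1, T-LM minus KPT 1, and K-LM minus KPT and K-LM minus T-LM 0. With the long mRNA index, P0 to P1 in T-LM gave 4, P1 to P6 1 in each route, P3 to P6 in K-LM 0, K-LM minus KPT 6 and K-LM minus T-LM 2. With the 75th percentile over all probes, P0 to P1 in T-LM gave 0, P1 to P6 1 in each route, K-LM minus KPT 5 and K-LM minus T-LM 2. With no filter, P0 to P1 in T-LM, P1 to P6 in KPT, P3 to P6 in K-LM and K-LM minus T-LM gave 0 and P1 to P6 in T-LM 1. With probes above background on all arrays, which leaves 3 members in some fits, P0 to P6 and P3 to P6 gave 0 in T-LM and K-LM, P0 to P1 in T-LM 0, T-LM minus KPT 1, K-LM minus KPT 0 and K-LM minus T-LM 2. Normexp with quantile normalization (on median signals, since the files hold no mean signal) and the authors' values both gave 0 for P0 to P1 in T-LM and 2 for K-LM minus T-LM. Without the array set term, P3 to P6 in K-LM and K-LM minus KPT gave 5. With slide as a random block, P0 to P1 gave 1 in KPT and 0 in T-LM, P3 to P6 in K-LM 0 and K-LM minus KPT 6. Within the slide labelled batch2, P0 to P6 in KPT and K-LM minus KPT gave 1. With 2 groups only, P0 to P6 and P3 to P6 in KPT gave 2, P0 to P1 in T-LM 0 and P1 to P6 in T-LM 1. Without the sample of unclear title, P0 to P1 in T-LM gave 6. The share of all probes passing ranged widely over these alternatives. From P0 to P6 it was 1.35% to 8.31% in KPT, 1.92% to 11.3% in T-LM and 1.57% to 15% in K-LM. From P3 to P6 it was 0% to 4.29%, 1.04% to 7.94% and 0.511% to 11.9%. From P0 to P1 it was 0.548% to 6.25% in KPT and 0% to 8.18% in T-LM, and from P1 to P6 2.89% to 14.4% and 2.68% to 11.4%. T-LM minus KPT had 1.41% to 12.9%, K-LM minus KPT 3.84% to 22.3% and K-LM minus T-LM 2.72% to 19.8%.

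Leaving out 1 sample at a time, P0 to P6 gave 0 in KPT, 1 to 5 in T-LM and 1 to 4 in K-LM, P3 to P6 gave 0, 4 to 5 and 0 to 5, P0 to P1 gave 0 in KPT and 0 to 6 in T-LM, and P1 to P6 gave 0 in KPT and 0 to 2 in T-LM. T-LM minus KPT gave 7 each time, K-LM minus KPT 2 to 3 and K-LM minus T-LM 0 to 2. The share of all probes passing moved as well. From P0 to P6 it was 1.83% to 3.4% in KPT, 3.21% to 6.32% in T-LM and 2.07% to 3.71% in K-LM. From P3 to P6 it was 0% to 1.52%, 4.09% to 8.36% and 0.978% to 8.39%. From P0 to P1 it was 0.464% to 5.15% in KPT and 0.261% to 8.18% in T-LM, and from P1 to P6 7.6% to 10.2% and 5.53% to 9.57%. T-LM minus KPT had 9.12% to 10.7%, K-LM minus KPT 9.88% to 15% and K-LM minus T-LM 6.95% to 11.4%.

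With the replicate block, P0 to P1 in T-LM gave 5, P1 to P6 in KPT and T-LM 0, and K-LM minus T-LM 2. The labels do not say that a shared number marks a shared animal or day, and same-numbered samples did not deviate together: in no comparison were all correlations of their deviations over 0.1 (P1 to P6 in KPT -0.32 to 0.40 over 5 numbers).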
